A study of Drosophila melanogaster with 6 samples.

Results

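The transcriptome described here is that of late *Drosophila melanogaster* embryos of the w1118 strain, measured in the 2 libraries with that genotype of the 6 in the series. The libraries were taken by their genotype label, and all 17208 genes of the deposited table were described in both libraries. The series also holds 4 libraries of embryos mutant for *ft*, which were not analysed here. Embryos were laid and aged on grape agar at 25 °C and were 16 to 20 h old. The strain w1118 carries a mutation of *white* (*w*), a transporter gene of eye pigment, and is otherwise used as a wild type. Whole embryos were lysed, so each library mixes all tissues, and in such bulk RNA fewer cells of a type and less RNA per cell cannot be told apart. The labels do not say whether replicate 1 and replicate 2 came from separate collections of embryos, or how many embryos each held, so the spread between them may be technical.

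At 16 to 20 h a fly embryo has finished organogenesis and prepares to hatch. The body wall muscles assemble sarcomeres and begin to contract, neurons form synapses, and the tracheal tubes clear their fluid and fill with gas. Epidermal and tracheal cells deposit a cuticle of chitin and cuticle proteins, which is then hardened through products of the dopamine pathway. Most cells apart from some progenitors have left the division cycle, and the RNA that the mother placed in the egg has mostly been cleared long before.

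The libraries held 29131506 and 22217098 estimated counts for replicate 1 and replicate 2. Levels are given as CPM, the estimated count divided by the library total times 1000000, with replicate 1 first. CPM grows with transcript length, so an order by CPM, meant by "highest" or "led" where no scale is named, is one of reads taken and not of transcript level. How far the level of 1 gene exceeded that of another is given only as CPM per kb of summed exon length. A gene counted as detected at 1 CPM or more in both libraries. The floor of 3 counts lay at 0.103 CPM in replicate 1 and 0.135 CPM in replicate 2, and it covers counting error only, since the reads carried no molecular identifiers. For *w*, 3 counts were found in replicate 1 and 0 in replicate 2, which is at or under that floor. The gene *ft*, which encodes the giant cadherin Fat, stood at 45.7 and 45.5 CPM.

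Of the 17208 genes, 10225 (59.4%) were detected, 7371 reached 10 CPM in both libraries, 2147 reached 100 CPM and 85 reached 1000 CPM. At the other end 2557 genes (14.9%) were at 0 in both libraries. Among genes annotated as protein coding, 9836 of 13649 (72.1%) were detected and 973 were at 0 in both. Detected counts of the protein-coding lists below stand against that 72.1%. The midgut, germ cell, neuropeptide, photoreceptor and RR-type cuticle lists were near it, so their counts do not set them apart. The reads were spread over many genes: the 10 highest genes of each library took 7.66% and 7.55% of its total, the 100 highest took 23.7% and 24.6%, and the 1000 highest took 58.0% and 59.4%. Protein-coding genes took 96.5% and 97.3% of the reads. Genes annotated as ribosomal RNA took 1.24% and 0.466%, and replicate 1 held the larger share. By chromosome arm, 3R took 25.9% and 25.5%, 2R 21.3% and 21.1%, 3L 18% and 18.1%, 2L 15.9% and 16.6%, X 14.2% and 14.8% and the small chromosome 4 1.9% and 1.8%. Of the 107 genes on the Y chromosome, 1 was detected.

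Genes of the contractile apparatus took the most reads. *Act57B*, an actin of larval body wall muscle, was the highest gene on either scale, at 19328 and 17533 CPM, or 11211 and 10170.1 CPM per kb. It lies on arm 2R from 20944021 to 20946431 on the plus strand (build BDGP6.54). *Mhc*, the muscle myosin heavy chain, was second by mean CPM at 6257 and 10431, and was the higher in replicate 2 by 1.67-fold. *Mlc2*, the regulatory light chain of myosin, followed at 7625 and 7142 CPM and differed little between the libraries. By mean CPM the first gene outside muscle was *TwdlM*, a cuticle protein gene, at 6919 and 6841 CPM. In replicate 1 alone, *mt:lrRNA* at 8209 CPM was second of all genes, above *TwdlM* and *Mhc*. Next came genes of protein synthesis and folding: the elongation factor *eEF1alpha1* at 6791 and 6699 CPM, the poly(A)-binding protein gene *pAbp* at 6596 and 6798, and the constitutive chaperone *Hsc70-4* at 6112 and 6089.8. These 3 differed little between the libraries.

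Most of the rest of the 25 highest genes by CPM belong to a few processes. *Act87E*, another muscle actin, stood at 4615 and 4427 CPM, *Tm2*, a tropomyosin, at 3512 and 3467, *Mlc1*, the alkali light chain, at 3446 and 2812, and *Prm*, paramyosin, at 2568 and 3040.5. The ATP synthase genes *ATPsynC*, *blw* and *ATPsynbeta* stood at 4139 and 3216, 3659 and 3438 and 3399.5 and 2741 CPM. All 3 were higher in replicate 1. *Vha16-1*, the proteolipid subunit of the vacuolar proton pump, was at 3642 and 3840.2 CPM, and *Atpalpha*, the catalytic subunit of the sodium pump, was at 2707 and 3468. The set also held *eEF2* at 4107 and 3747, the cyclin gene *CycG* at 3827 and 3861, the cytoplasmic actin *Act5C* at 3028 and 3316, and *mesh*, a protein of smooth septate junctions in the gut, at 2611 and 3569 CPM. *Clect27*, a C-type lectin gene with no position in the annotation used, stood at 3884 and 3906 CPM. The noncoding RNA gene *lncRNA:CR42862*, at 3453 and 3565 CPM, differed little between the libraries and is described with the noncoding genes. The remaining genes, *mt:lrRNA*, *Col4a1* and *vkg*, were among those that differed most between the libraries and are described with them.

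**Figure D1:**
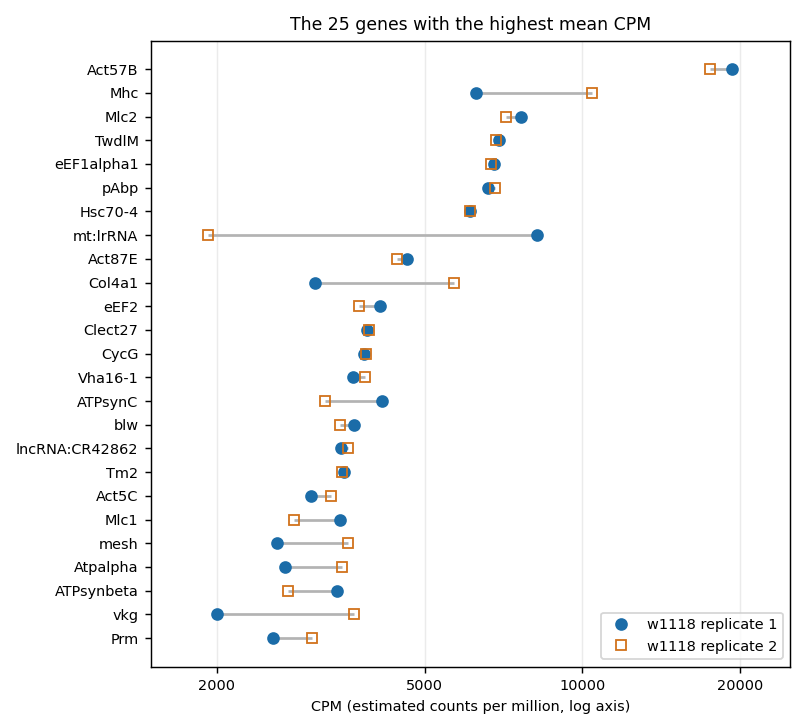
CPM of the 25 genes with the highest mean CPM, on a log axis; filled circles are w1118 replicate 1, open squares w1118 replicate 2, and grey lines join the values of a gene. *Act57B* is the highest gene in both libraries, while *mt:lrRNA*, *Mhc*, *Col4a1* and *vkg* show the widest gaps.

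Per kb of exon, short cuticle and muscle transcripts moved up. After *Act57B*, the highest were *TwdlM* at 6718 and 6641 CPM per kb, *mt:lrRNA* at 6200.2 and 1451 CPM per kb, *Mlc2* at 3336 and 3124 CPM per kb, *eEF1alpha1* at 2756 and 2719 CPM per kb, and *TwdlB* at 2384 and 2673 CPM per kb. The place of *mt:lrRNA* rests on replicate 1, since in replicate 2 it was below *Mlc2*, *eEF1alpha1* and *TwdlB*. *Act87E*, *Hsc70-4*, *Mlc1* and *TwdlL* followed with means between 2127 and 2273 CPM per kb. The cuticle genes *Cpr51A* at 2055 and *Lcp65Ag3* at 1556, *ATPsynC* at 1969, *blw* at 1576 and *pAbp* at 1556 mean CPM per kb completed the 15 highest. Of the 10 highest genes, 7 were shared between the ranking by CPM and the ranking per kb. *Mhc*, with 9058 bases of exon, fell from rank 2 by CPM to rank 36 per kb.

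The list of body wall muscle genes took the most reads of the tissue lists. Whole embryos were lysed, so these reads cannot be assigned to body wall muscle alone. All 25 genes of the list were detected, and together they took 69654 and 72632 CPM, or 6.97% and 7.26% of the libraries. Muscle paralogs, some of them outside that list, stood at very different levels. Per kb, *Act57B* exceeded *Act87E* by 4.83 and 4.57 times, and it exceeded *Act79B*, an actin of adult leg and other tubular muscle, by 6448 and 6418 times. The flight muscle actin *Act88F* stood at 0.412 and 0.405 CPM. Among troponin C genes, *TpnC73F* at 1736 and 1216 CPM and *TpnC47D* at 542 and 339 led, and *TpnC4*, known from flight muscle, was at 0.378 and 0.27. Of the 6 genes of adult flight and leg muscle, 2 were detected, *TpnC41C* at 20.3 and 15.5 CPM and *Act79B* at 2.81 and 2.57. The summed CPM of that adult list came to 24.2 and 19 CPM.

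Cuticle proteins took fewer reads than muscle, with a mean sum of 26078 CPM for the Tweedle and the RR-type families against 71143 CPM for body wall muscle. The order turned when CPM was divided by exon length and rescaled to the same total, with 68928 for the cuticle proteins and 64693 for muscle. Of the Tweedle genes, a family of cuticle proteins found in insects, 23 of 26 were detected and the family summed to 16706 and 16178 CPM. A run of 12 Tweedle genes lies on arm 3R from 26619118 to 26641054. It held 13044 and 13199 CPM of the family sum, with *TwdlM*, *TwdlB* at 2443 and 2739.9 and *TwdlL* at 2231 and 2304 CPM in front. Within the same run, *TwdlO* was not detected, at 0.24 and 0.765 CPM. Members of 1 genomic run were thus not all detected.

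Of the cuticle proteins that carry the chitin-binding Rebers and Riddiford domain, together with the larval cuticle genes of the same family, 64 of 94 were detected, 22 reached 100 CPM in both libraries and 5 were at 0 in both. Their sum was 10754 and 8517 CPM. *Cpr51A* at 1683 and 992 CPM, *Cpr65Ea* at 1067 and 596, *Lcp65Ag3* at 949.8 and 739.8 and *Cpr64Ad* at 789.6 and 695 were the highest, each higher in replicate 1. The largest run of these genes holds 18 members on arm 3L from 6130386 to 6161589, of which 12 were detected. The *Lcp65Ag* copies in it are near-identical, so reads may be divided among them by the quantifier's model. By contrast, the 5 genes of the *Lcp1* to *Lcp4* run on arm 2R came to 5.18 and 3.74 CPM, and 1 of them was detected. These genes are known from later larvae. Among 6 genes of pupal and adult cuticle, *Edg78E* at 14.6 and 17.2 CPM and *Edg91* at 16.8 and 12.8 were the highest.

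The Osiris genes encode insect-specific transmembrane proteins expressed in cuticle-forming cells. Of 24 members, 16 were detected, and 9 stood at 100 CPM or more in both libraries. A run of 20 members spans 6173549 to 6341424 on arm 3R and held nearly the whole sum, 4916 and 3679.5 of 4918 and 3681 CPM. *Osi7* at 937 and 809.7 CPM, *Osi20* at 719 and 504, *Osi15* at 699.8 and 488 and *Osi6* at 660.2 and 432 led. Other members of that run, such as *Osi11* at 0 in both libraries, were not detected at this depth.

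The enzymes and matrix proteins that build the cuticle were all detected, 30 of 30 genes with a sum of 16291 and 18064 CPM. The chitin deacetylases *verm* and *serp* stood at 2347 and 2962 and at 2308 and 2799.8 CPM, both higher in replicate 2. *Gasp*, a chitin-binding protein of the airway and epidermal matrix, was at 2359.6 and 1961 CPM and higher in replicate 1. These 3 genes are also in the tracheal list, of which 14 of 14 genes were detected at a sum of 9219 and 9921 CPM. The tracheal list further held *obst-A*, another chitin-binding protein, at 858 and 689.6 CPM. Septate junction genes, which seal epithelia, were likewise all detected (17 of 17), with *Atpalpha*, *Nrg* at 1064 and 1432, *cora* at 813 and 1265 and *nrv2* at 696 and 768 CPM the highest. *Nrg* and *cora* were each higher in replicate 2.

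In the nervous system lists, all 30 neuronal and all 15 glial genes were detected. Neuronal genes summed to 4210.2 and 5299 CPM and glial genes to 2152 and 2479.7 CPM, both higher in replicate 2. The ratio between the libraries followed exon length, as described below. The median log2 ratio of replicate 1 to replicate 2 was -0.196 for neuronal genes, against -0.184 for all genes in their length range. After subtracting the median of genes of like exon length, the median was -0.095 for neuronal and -0.335 for glial genes. The highest neuronal genes were *Appl*, the fly homolog of the amyloid precursor protein, at 448 and 815 CPM, the synaptic fusion protein *Syx1A* at 270.2 and 287, *Ddc*, the enzyme that makes dopamine and serotonin, at 249 and 286, and *Gad1*, which makes GABA, at 214 and 320.2. *Ddc* also acts in the epidermis, where it serves cuticle hardening, so its level cannot be assigned to neurons. Among glial genes, *nrv2*, also a junction gene, and glutamine synthetase *Gs2* at 425 and 509.8 CPM led, ahead of *Gli* at 189 and 194 and the astrocyte gene *alrm* at 157 and 156. The family of dpr and DIP surface proteins, which pair synaptic partners, was detected in full (30 of 30), from *dpr9* at 62.1 and 79.7 CPM downward, with 26 members at 10 CPM or more in both libraries. Of 33 neuropeptide and peptide hormone genes, 23 were detected, led by *Nplp1* at 57.5 and 84.2 CPM and *ITP* at 26.3 and 28.6.

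Sensory receptors were mostly near the floor. Of the odorant receptor genes 3 of 59 were detected, of the gustatory receptor genes 7 of 59 and of the ionotropic receptor genes 8 of 66. The highest were *Or19b* at 6.01 and 4.41 CPM, which has a near-identical copy that could share its reads, *Gr39a* at 8.72 and 12, and *Ir87a*, *Ir62a*, *Ir25a* and *Ir76b* between 11.7 and 15.7 CPM. *Ir25a* and *Ir76b* encode co-receptors shared by many sensory neurons. The odorant binding proteins, small secreted carriers, were higher, with 15 of 50 detected and *Obp83g* at 154 and 80.4 CPM. Photoreceptor genes summed to 98.6 and 103 CPM, with 13 of 19 detected. The highest were the phospholipase *norpA* at 32.6 and 40.6 CPM, which other neurons also use, and the eye regulators *so* at 22.3 and 19.2 and *ey* at 16.8 and 16.8. *Rh6* and *Rh5*, the opsins of the larval eye, were detected at 4.43 and 4.55 CPM and 2.2 and 3.2. *ninaE*, the main opsin of the adult eye, was at 0.309 and 0.36 CPM.

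The highest fat body gene was the lipoprotein *apolpp* at 2277 and 2288 CPM, and all 11 genes of that list were detected. The larval serum proteins, which the fat body makes in the last larval instar, were lower: *Lsp1gamma* was at 13.1 and 14.3 CPM, *Lsp2* at 2.68 and 1.98, *Lsp1beta* at 0.172 and 0.135 and *Lsp1alpha* at 0 and 0.1. Of the midgut list 15 of 21 were detected, against 72.1% of all protein-coding genes. It was led by the maltase *Mal-A3* at 628 and 679 CPM and the transcription factor *GATAe* at 197 and 216. The next were *mex1*, expressed in absorptive midgut cells, at 69.7 and 40.7 CPM and the trypsin *lambdaTry* at 63.9 and 46.4. Salivary gland genes were all detected (9 of 9), with *pip*, a sulfotransferase, at 196 and 172 CPM and the regulator *fkh* at 157 and 174. Of the glue and late gland genes of the third larval instar, 0 of 15 were detected, and their sum was 1.51 and 1.31 CPM.

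Hemocyte genes were led by the type IV collagen genes *Col4a1* and *vkg*, by *Ppn*, a matrix protein, at 875 and 1433 CPM, and by *PPO2*, the crystal cell prophenoloxidase, at 379 and 306. *PPO2* was the higher in replicate 1 and the others in replicate 2. Of 16 genes of the list, 13 were detected, and *He*, *lz* and *NimC2* stayed under 1 CPM in both libraries. In the heart and visceral mesoderm list all 14 genes were detected, with the matrix genes *Ndg* at 1874 and 2455 CPM and *prc*, the heart collagen-like gene, at 712 and 1106 highest. Germ cell genes were detected in 10 of 14 cases, but *tud* at 367 and 452 CPM, *gcl* at 335 and 283 and *ovo* at 46.9 and 58.1 are also used by somatic cells. *piwi* stood at 6.38 and 5.81 CPM.

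Lists of genes known from other stages differed in how many members were detected. None of 17 eggshell genes was detected, and 6 were at 0 in both libraries, with a sum of 2.13 and 2.39 CPM. Seminal fluid genes were detected in 2 of 20 cases, *Acp36DE* at 5.18 and 4.37 CPM and *Est-6* at 4.5 and 4.68, and testis genes in 4 of 22 cases at a sum of 9.2 and 9.67 CPM. Yolk protein genes stood at 1.54 and 1.4 CPM for *Yp3* and under 1 CPM for *Yp1* and *Yp2*. Of the Y chromosome protein genes, 1 of 11 was detected, *FDY* at 6.05 and 3.46 CPM. *FDY* is a near-copy of *vig2* on arm 3R, which was at 147 and 134 CPM, so reads of *vig2* may have been assigned to it. Of 12 blastoderm genes 6 were detected, *bnk* at 13.1 and 12.3 CPM and *twi* at 10.4 and 8.87 among them. The highest were *sog*, a BMP antagonist with later roles, at 61 and 79.1 CPM, *Bsg25D* at 48.4 and 46.7 and *sna* at 24.2 and 24.7, while *Z600* was at 0 in both libraries and *halo*, *zen*, *nullo* and *Bsg25A* were under 0.2 CPM. Of 15 gap and pair-rule genes 14 were detected. The exception was *ftz* at 0.103 and 0.045 CPM, whereas *h*, which acts again in later tissues, was at 113 and 112 and the gap gene *Kr* at 50.4 and 53.7. The 8 Hox genes, which set segment identity along the body, were all detected, led by *abd-A* at 102 and 106 CPM and *Antp* at 104 and 93.3, then *Abd-B* at 56.4 and 55 and *Scr* at 51.2 and 49.5.

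**Figure D2:**
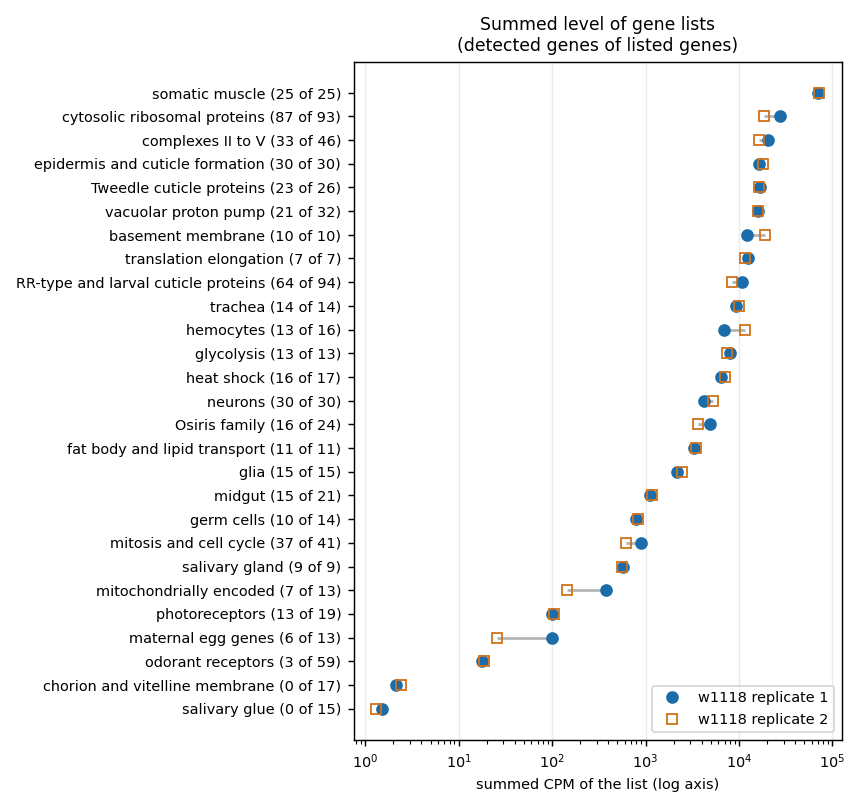
Summed CPM of gene lists in both w1118 libraries, on a log axis, with the number of detected genes of the genes in each list in brackets; circles are replicate 1 and squares replicate 2. Body wall muscle is the highest list, eggshell and glue genes lie under 3 CPM in each library, and the mitochondrially encoded and maternal egg lists show the widest gaps between libraries.

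**Figure D3:**
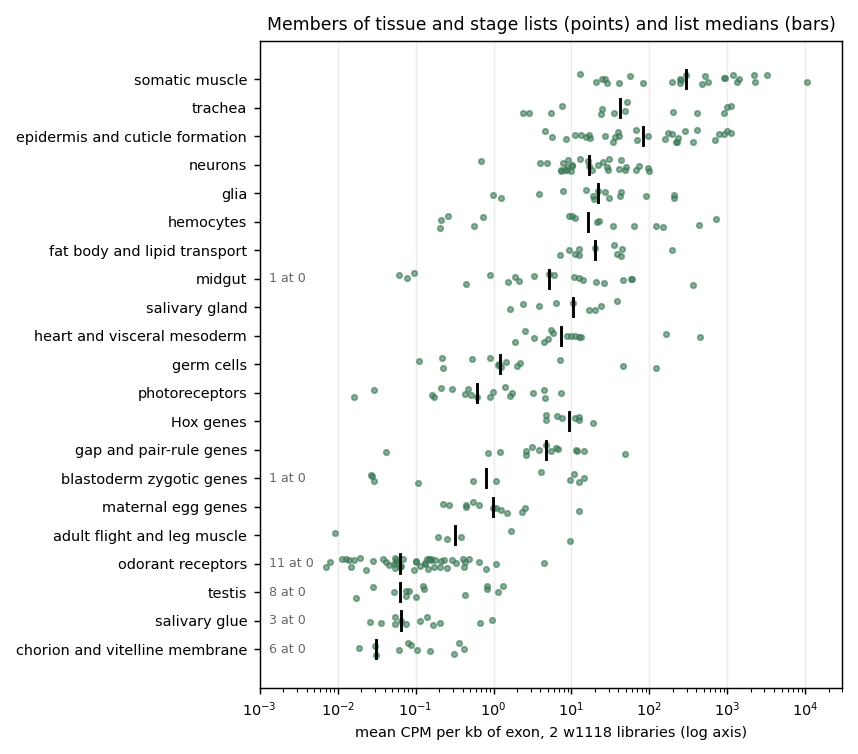
Mean CPM per kb of exon over the 2 w1118 libraries for each member of tissue and stage lists, on a log axis; points are genes, bars are list medians, and genes at 0 are given as a count at the left. Medians of the lists shown run from 291 CPM per kb for body wall muscle to 0.0308 for eggshell genes.

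The cytosolic ribosomal protein genes, 87 of 93 of them detected, summed to 27166 and 18471 CPM and had a median of 221 CPM per kb. *RpS3A* at 1134 and 774 CPM, *RpL3* at 1017 and 868, *RpS2* at 959.9 and 704 and *RpLP0* at 792 and 655 were the highest. All 7 translation elongation genes were detected, and per kb *eEF1alpha1* exceeded its paralog *eEF1alpha2* by 701 and 608 times. Subunits of complexes II to V summed to 20505 and 16441 CPM and those of complex I to 4975 and 3704 CPM, led by *ND-75* at 469 and 485 CPM. In these 2 lists 4 and 2 members were at 0 in both libraries, out of 46 and 40. Genes of the vacuolar proton pump, which acidifies organelles and the lumen of some epithelia, summed to 15943 and 16122 CPM. After *Vha16-1* came *Vha68-2* at 2619 and 2578 CPM, *Vha55* at 1789.6 and 1773 and *Vha26* at 1403 and 1498. Glycolysis genes were all detected, with aldolase *Ald* at 2678 and 2502 CPM and *Gapdh2* at 1730.0 and 1458. *Gapdh2* exceeded *Gapdh1* by 3.62 and 3.67 times per kb.

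Stress and immune genes were at opposite ends. Heat shock genes were detected in 16 of 17 cases and summed to 6460.0 and 7066 CPM, with *Hsp83* at 1313 and 2688 CPM, *Hsp70Ab* at 1211 and 1138, the RNA *lncRNA:Hsromega* at 777 and 658 and *Hsp70Bbb* at 872 and 547. The *Hsp70* genes are near-identical copies, so their single values are uncertain. Antimicrobial peptide genes, induced on infection, were detected in 2 of 18 cases, *IM3* at 3.06 and 2.25 CPM and *IM1* at 1.54 and 1.35. Of the cytochrome P450 genes 64 of 85 were detected, led by *Cyp6a23* at 344 and 346 CPM. Of the glutathione transferases 30 of 35 were detected, and *GstT4* at 599 and 417 CPM and *GstD1* at 366 and 257 were the highest.

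Among long noncoding RNA genes, 156 of 1920 were detected and 734 were at 0 in both libraries. *lncRNA:CR42862*, on arm 3L from 224106 to 230964 on the plus strand, was by far the highest at 3453 and 3565 CPM, which placed it at rank 17 of all genes by CPM. It took about as many reads as *Tm2*, and at 639.8 CPM per kb it was below *Tm2* at 1335. *lncRNA:roX1*, an RNA of the dosage compensation complex that coats the male X chromosome, followed at 966 and 803 CPM, and exceeded *lncRNA:roX2* by 16.7 and 28.8 times per kb. The embryos were not sexed in the labels. *lncRNA:CR42491* at 174 and 118 CPM, *lncRNA:CR43334* at 129.7 and 112, *lncRNA:CR31781* at 102 and 94.7, *lncRNA:CR43459* at 102 and 93.4 and *lncRNA:CR43650* at 103 and 82.3 completed, with *lncRNA:Hsromega*, the 8 highest noncoding genes when ribosomal RNA is left out. Strand was not recorded by the library kit, so a noncoding RNA that overlaps another gene may carry reads of that gene. Of genes annotated as transfer RNA 106 of 107, of those annotated as small nuclear RNA 22 of 26 and of the microRNA hairpins 242 of 255 were at 0 in both libraries.

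The 2 libraries ranked genes almost alike. On counts rounded to whole numbers, 8696 genes had a mean of at least 5 CPM. The Spearman correlation of their CPM was 0.9824, and 85 of the 100 highest genes of each library were shared. These values describe 2 libraries of 1 sample kind and carry no test. Without rounding, 8697 genes had a mean of at least 5 CPM. The ratio of replicate 1 to replicate 2 was within 1.5-fold for 88.6% of these 8697 genes, and 60.9% of them were higher in replicate 1. The median ratio was 0.09 on the log2 scale, with an interquartile range of -0.13 to 0.33. At least a 2-fold excess was seen in 90 genes for replicate 1 (1.03%) and in 16 genes for replicate 2 (0.184%). The common biological coefficient of variation of the pair was 17.6%. The columns held different values and were counted as 2 samples. With 1 library on each side there is no replicate check of any single difference, and no p-value is given.

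The ratio followed exon length. Genes of up to 500 exon bases had a median log2 ratio of 0.82 (n = 106), and genes of 500 to 1000 bases 0.56 (n = 913), so short transcripts were higher in replicate 1. The median was 0.26 for 1000 to 2000 bases, 0.07 for 2000 to 3000 and -0.07 for 3000 to 5000. Above 5000 bases it turned to -0.18, and above 8000 bases to -0.22, so long transcripts were higher in replicate 2. Spearman's rho between exon length and log2 ratio was -0.675 over 8629 genes, and -0.593 to -0.668 within 3 classes of level. That is a correlation across genes, which are not independent replicates and share the same pair of libraries. Because of it, list medians below, and the ratios of single genes where stated, are also given after subtracting the median of genes in the same length range. After that step 25 genes (0.290%) were past 2-fold in replicate 1 and 22 genes (0.255%) in replicate 2, 95.9% were within 1.5-fold, and the interquartile range was -0.15 to 0.15.

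**Figure D4:**
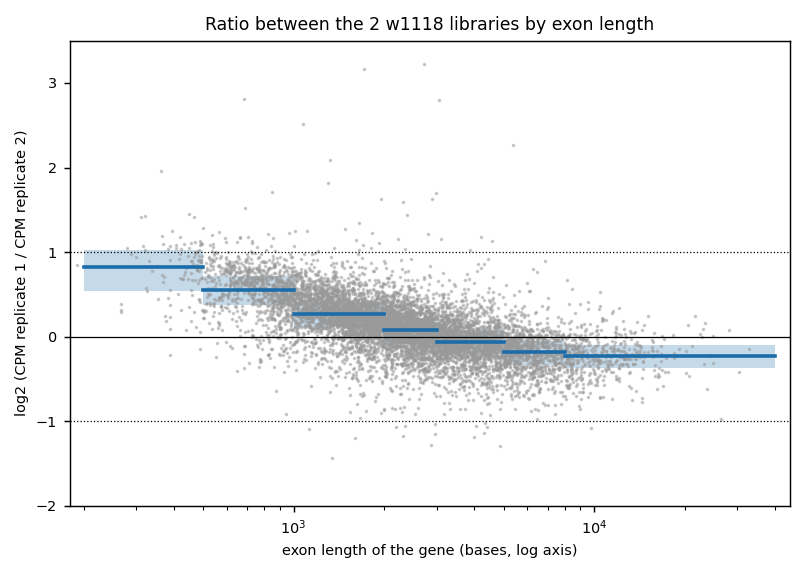
Log2 ratio of replicate 1 to replicate 2 against exon length, on a log axis, for 8629 genes with a mean of at least 5 CPM; grey points are genes, blue lines are medians and blue bands interquartile ranges of 7 length ranges, and dotted lines mark 2-fold. The medians step down from 0.82 to -0.22 as genes get longer.

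Small housekeeping proteins sat on the short side of this trend. All 86 cytosolic ribosomal protein genes with a ratio were higher in replicate 1, against 60.9% of all genes with a ratio. Their median log2 ratio was 0.66, and 5 were past 2-fold against the 1.03% of all genes. After the length step their median was 0.20, above the interquartile range of all genes, and 76 of 86 were still above 0. Mitochondrial ribosomal protein genes had medians of 0.61 before and 0.13 after, when 63 of 69 were above 0. The cuticle proteins of the RR type changed sides: their median was 0.24 as measured and -0.28 after the length step, when 10 of 55 genes were above 0. Body wall muscle genes had a median of -0.04 before and 0.02 after, so the list as a whole did not lean to either library.

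Some mitochondrial transcripts were the main exception in abundance. *mt:lrRNA*, the large ribosomal RNA of the mitochondrion, was at 8209 and 1922 CPM, 4.27-fold higher in replicate 1, and 1.83 on the log2 scale above genes of like length. *mt:CoII*, a subunit of cytochrome oxidase, was at 172 and 24.4 CPM, and *mt:ND5*, a subunit of complex I, at 25.3 and 2.79, or 2.26 and 2.91 on the log2 scale above like length. Yet *mt:CoI* was at 157 and 100.4 and *mt:Cyt-b* at 7.55 and 6.44 CPM, so the mitochondrial genes did not share 1 ratio. Of the 13 genes in the mitochondrially encoded list, 7 were detected, and *mt:srRNA*, the small ribosomal RNA, had 4 counts in each library. Per kb, *mt:lrRNA* exceeded *mt:CoI* by 60.7 and 22.2 times. The 28S ribosomal RNA gene *28SrRNA:CR45837* had the largest ratio of all genes with a mean of at least 10 CPM, at 122 and 13 CPM, 3.16 on the log2 scale above like length. It is 1 of several near-identical copies, and a copy of full length, *28SrRNA:CR45844*, was at 764 and 492.

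Several regulators of mitosis were higher in replicate 1 by more than genes of like length, and several stored egg transcripts were higher there too. *CycB*, the B-type cyclin, which is also among the RNAs stored in the egg, was at 66.6 and 9.54 CPM, 6.97-fold higher in replicate 1 and 2.87 on the log2 scale above genes of like length. The mitotic kinase *polo* was at 20.1 and 6.21 CPM and the cyclin *CycB3* at 28.6 and 9.23, with 1.62 and 1.56 above like length. These 3 genes have between 2883 and 3047 exon bases, lengths at which the median gene was close to even. In the maternal egg list, *bcd*, the anterior determinant, had 144 and 11.9 estimated counts, *osk*, which founds the germ plasm, 32.7 and 4.0 estimated counts, and *swa*, which localizes *bcd* RNA, 144 and 23 estimated counts. The egg activation regulator *plu* had 18 and 1.0 estimated counts. These counts are not scaled to the library totals of 29131506 and 22217098, so their plain ratios overstate the excess in replicate 1. In replicate 2, *osk* and *plu* had fewer than 10 counts, where the libraries can differ by counting error alone. On the other hand *nos*, the posterior determinant, was at 2.35 and 3.56 CPM, higher in replicate 2, and *png* at 1.06 and 1.13. Of the 13 maternal egg genes, 11 were higher in replicate 1 with no filter on level, and 7 of the 13 were not detected. The share of 60.9% over all genes was counted at a mean of at least 5 CPM, so it is not a like background. The 13 genes summed to 99.1 and 25.8 CPM, of which *CycB* alone held 66.6 and 9.54. Of the 13, 2 reached a mean of 5 CPM, *CycB* among them, and both were higher in replicate 1.

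A list of 41 mitosis and cell cycle genes, put together after these ratios were seen, leaned the same way. It shares *CycB* with the maternal egg list. Of 30 with a ratio, 29 were higher in replicate 1 and 7 were past 2-fold, against 60.9% and 1.03% of all genes with a ratio, and the median was 0.60. After the length step it was 0.43, with 28 of 29 above 0. Since the list was chosen for this, the counts are a description only. The chromosomal passenger gene *borr* was at 8.31 and 2.34 CPM and the meiotic Cdc25 gene *twe* at 6.35 and 0.45. The regulators *stg*, which triggers mitosis, and *fzr* were nearly even at 34.3 and 33.5 and 84 and 81.6 CPM. A second list chosen afterwards, of 15 genes of oogenesis and egg activation, was mixed: *wisp*, a poly(A) polymerase of the egg, was at 4.6 and 0.72 CPM, while *spir*, an actin nucleator, was at 110.0 and 109. The median of the cell cycle list was 4.94 CPM per kb, against 291 for body wall muscle. Replication-dependent histone genes, whose RNAs lack poly(A) tails, were detected in 7 of 31 cases and summed to 136 and 79.1 CPM; they are near-identical copies.

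Matrix genes went the other way. *Col4a1* was at 3088 and 5682 CPM and *vkg* at 2001 and 3662, 1.84-fold and 1.83-fold higher in replicate 2, or -0.70 and -0.69 on the log2 scale after the length step. The pair are neighbours on arm 2L that encode the 2 chains of type IV collagen, and their ratio per kb was nearly the same in both libraries, 0.614 and 0.611. Nidogen, *Ndg*, was at 1874 and 2455 CPM and perlecan, *trol*, at 1318 and 1826. Of the 10 basement membrane genes, 1 was higher in replicate 1, against 60.9% of all genes with a ratio. Their sum was 12189.5 and 19116 CPM, and their median log2 ratio was -0.56, or -0.39 after the length step. None was past 2-fold. Much of this RNA is known to come from hemocytes and fat body. The hemocyte list leaned the same way, in part on the same values, since it shares *Col4a1*, *vkg* and *Ppn* with the basement membrane list. Of its 11 genes with a ratio, 3 were higher in replicate 1, *PPO2* among them, against 60.9% of all genes with a ratio. The median of the hemocyte list was -0.33, or -0.40 after the length step. *Hsp83*, the fly Hsp90 gene, was 2.05-fold higher in replicate 2, whereas *Hsp70Aa* at 16.8 and 6.17 CPM was 2.72-fold higher in replicate 1. After the length step they stood at -1.11 and 1.37. *Hsp70Aa* is 1 of several near-identical copies, so its single value is uncertain, and the copy *Hsp70Ab* at 1211 and 1138 CPM was 1.06-fold higher in replicate 1. Of 15 heat shock genes with a ratio, 11 were higher in replicate 1, against 60.9% of all genes with a ratio, and 4 in replicate 2. Heat shock genes thus did not all lean to the same library.

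The other genes with the widest ratios were mostly without a named function. Higher in replicate 1 were *CG10591* at 27.9 and 4.86 CPM, *lncRNA:CR34335* at 24 and 6.17, *CG13365* at 14.6 and 5.99 and *MESK4* at 40.2 and 16.7. Higher in replicate 2 were *Muc11A*, a mucin-related gene, at 10.8 and 26.7 CPM, *CG30203* at 7.55 and 18.4, *asRNA:CR45995* at 36.1 and 82.8 and *CG3078* at 15.2 and 34.7. The receptor tyrosine kinase gene *Alk* was at 37.4 and 79.5 CPM, *CG32237* at 95.9 and 213, *CG9297* at 346 and 765 and *CG7465* at 239.7 and 513. The last 4 genes by that rule, *CG8492*, *CG31321*, *CG12239* and *CG2269*, were between 2.08- and 2.1-fold higher in replicate 2. After the length step the 12 genes higher in replicate 2 lay between -1.46 for *asRNA:CR45995* and -0.86 for *Alk*. The 4 named here as higher in replicate 1 lay between 0.46 for *CG13365* and 2.25 for *CG10591*. *CG46312* had 431.8 estimated counts in replicate 1 and 0 in replicate 2, at least 109.8-fold higher against the floor of 3 counts per library. That bound covers counting error only. The value in replicate 1 is not a whole number, so the quantifier may have divided reads between this gene and another sequence.

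**Figure D5:**
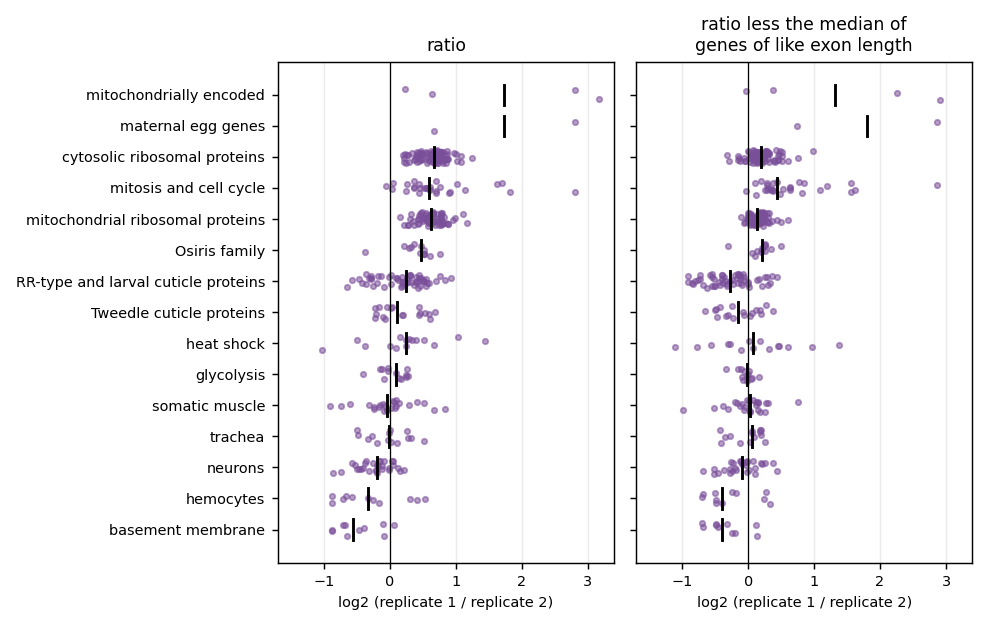
Log2 ratio of replicate 1 to replicate 2 for members of 15 gene lists with a mean of at least 5 CPM and a known exon length, as measured (left) and after subtracting the median of genes of like exon length (right); points are genes and bars list medians. Ribosomal protein genes move toward 0 on the right, where 76 of 86 cytosolic ones are still above it. There 2 of 10 basement membrane genes and 28 of 29 cell cycle genes are above 0, the latter a list put together after the ratios were seen.

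The ratios of egg and mitosis genes, of ribosomal RNA copies and of exon length all moved between the same pair of libraries, and the part of any of them in the other differences was not tested.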

How the data were processed

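RNA from whole embryos entered the SMARTer Ultra Low RNA kit at 10 ng per library, was amplified for 12 to 15 cycles after shearing and was read as pairs of 150 bases, per the labels' protocols. The kit does not record strand and reads carried no molecular identifiers. Values are estimated counts as deposited by the authors, in a single gene table without normalization. FastQC 0.10, Trimmomatic 0.33, Salmon 1.80, edgeR and build dm6 are named in the submitters' processing notes; the annotation release is not given in the sources used here. Of the values, 36.1% in replicate 1 and 31.9% in replicate 2 were not whole numbers within a tolerance of 0.0005. The quantifier divides reads between near-identical copies by estimation, which makes their single values uncertain. All 6 columns of the table were matched to a library, and the 2 of w1118 were used.

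CPM was the estimated count over the column sum. Positions, gene types and summed exon lengths came from Ensembl release 115 (BDGP6.54, dm6 coordinates), which held 17083 of the genes; the rest have no length here. Exon length counts every annotated exon, so CPM per kb is low for genes with many isoforms. In 5 genes the symbol had turned into a date and was restored from the gene ID. Ratios between the libraries used an added 0.5 count and genes with a mean of at least 5 CPM. The coefficient of variation came from edgeR 4.0.16 (R 4.3.3) on counts rounded to whole numbers and was tested on simulated data. DESeq2 1.42.0 size factors were an alternative. Other steps used Python 3.11.15 and pandas 2.3.3. The design held no test, since a single group of 2 libraries was described.

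The libraries and the gene lists were chosen with earlier results of these data known. Lists overlapped: *verm*, *serp* and *Gasp* are in 2 lists or more, as are *Ddc*, *nrv2*, *Ndg*, *Col4a1* and *CycB*. Of 4582 list entries, 4580 matched the table. Named genes are the 25 highest by CPM, the 15 highest per kb, up to 4 highest members of each list, any member of stage and paralog lists, the 12 widest ratios in each direction among genes with a mean of at least 10 CPM, the 8 highest noncoding RNA genes, *w* and *ft*. Named outside that rule, after their values were seen, are *TwdlO*, *Osi11*, *Rh5*, *ninaE*, *He*, *lz*, *NimC2*, *eEF1alpha2*, *vig2*, *lncRNA:roX2*, *28SrRNA:CR45844*, *borr*, *twe*, *stg*, *wisp* and *CG46312*. The cell cycle and the oogenesis lists were also added after the data were seen. A planned description of promoter sequence was not made, as no sequence was used here.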

Additional observations from a re-analysis of the deposited data

How the results depend on the processing

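The number of detected genes stayed between 10246 and 11073 under other thresholds and scalings, against 10225, and 10307 to 10501 when either replicate was left out. The share of reads of the 10 highest genes, 7.46% on the mean, was 9.12% per kb of exon length and 8.83% per kb of the longest transcript, and 7.55% to 7.66% in single libraries. Divided by exon length in kb and rescaled to the same total as CPM, ribosomal protein genes rose from 22818 to 54905, cuticle proteins from 26078 to 68928, and muscle genes went from 71143 to 64693, which put cuticle proteins above muscle. Single libraries gave 18471 to 27166, 24695 to 27460.0 and 69654 to 72632 CPM for these lists.

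Of genes past 2-fold, the 90 higher in replicate 1 became 59 with DESeq2 size factors, 231 at a mean of at least 1 CPM, 13 at 50 CPM, 1549 with no filter and 25 after subtracting the median of like exon length. The 16 higher in replicate 2 became 29, 8.0 and 779 at those filters. The same length step, chosen after seeing the data, gave list medians of 0.20 for ribosomal proteins, 1.32 for mitochondrially encoded genes, 0.076 for heat shock genes, 0.43 for cell cycle genes and -0.39 for basement membrane genes, and it reversed the sign for all cuticle proteins, from 0.20 to -0.25. With a mean of at least 1 CPM or no filter, the mitochondrial median of 1.73 fell to 0.957 and 0.747 and the maternal egg median of 1.74 to 1.17 and 1.62, since more genes of low count entered lists of 4 and 2 genes. The other shifts follow from what each setting divides by or lets in. TMM and DESeq2 scaling moved the median ratio of all genes from 0.09 to 0.0091 and -0.00016. A ratio cannot be had with a replicate left out. No paired analysis was possible because a single group was described. Depth limits single genes below about 10 counts, where the 2 libraries can differ by counting error alone.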
